A study of Mus musculus with 14 samples.

Results

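Leukemic progenitor cells that had come back after a course of AG120 were compared with cells taken while mice were on the drug. The members were chosen by their labels alone: 4 relapse libraries against 5 AG120 libraries (3 at day 5 and 2 at day 14), which make 9 of the 14 libraries of the series. All groups share the same leukemia, called I1DN in the labels, transplanted into mice, and the same sort, cKit+ and CD11b-, done on each mouse. The AG120 groups received the inhibitor for 5 or 14 days, the relapse group received it for 28 days and was then followed until disease returned, and 5 vehicle libraries (3 at day 5 and 2 at day 14) give the state without the drug. No vehicle library is later than day 14, so a difference of relapse from vehicle cannot be told apart from one of time. Whether the drug was present at relapse, when after treatment the relapse mice were sampled and the age of the mice are not stated in the labels. Each library was taken as 1 mouse. No batch, litter or run is named in the labels, so p-values measure the spread between these libraries.

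AG120, or ivosidenib, inhibits the mutant form of IDH1, an enzyme that turns 2-oxoglutarate into 2-hydroxyglutarate. That product builds up in the leukemia and competes with 2-oxoglutarate at the dioxygenases that demethylate DNA and histones, among them TET2. Inhibitors of mutant IDH1 are known to release leukemic progenitors from a block in differentiation. Blood progenitors carry KIT and CD34 on their surface. They pass either into granulocytes and monocytes under factors such as PU.1 (Spi1) and C/EBP proteins or into red cells under GATA1 and KLF1.

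Expression was read near the 3′ end of each transcript (QuantSeq), and levels are given as CPM, counts scaled to a common, normalised library size. Total deposited counts were 4995738 to 8691708 in the 9 libraries, of which 60.6% to 74.8% fell in 5 ribosomal RNA gene models, so that 1259982 to 3124293 counts carried the comparison. Of the counts outside these models, the mitochondrial share was 0.719% to 0.766% in relapse and at least 0.871% in each library on the drug. Its part in the results was not tested. Adjusted p-values (edgeR, quasi-likelihood; Benjamini-Hochberg) cover all 11994 genes tested, and a gene is said to rise or fall where that value is under 0.05. Fold changes are on the log2 scale, followed by their standard error (SE).

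The sort can be checked against its own markers. Kit stood at 11.6 to 33 CPM on the drug and at 18.9, 50.1, 51.9 and 19.1 CPM in relapse replicates 1 to 4. Itgam, which encodes CD11b, stood at 2.55 to 7.99 CPM on the drug and at 53.4, 13.9, 16.1 and 35.4 CPM at relapse, so RNA of the marker used for exclusion was present in every library. In bulk RNA, fewer cells of a type and less RNA per cell cannot be told apart, and this holds for each lineage program below. By correlation, the 4 relapse libraries were also mostly less alike than those of the other groups. The correlations of log2 CPM between them were 0.92 to 0.972, with replicates 1 and 4 (0.972) and replicates 2 and 3 (0.957) closest to each other, against 0.967 to 0.987 within the other groups. A chi-square of the counts of library pairs, per degree of freedom, gave another order. It was 4.69 to 18.5 within relapse, 23.1 within vehicle day 14, 23.3 within AG120 day 14 and 1.94 to 13.8 within the day 5 groups. The counts used for it include the ribosomal RNA gene models. Their share was 68.1% and 55.8% in the vehicle day 14 libraries, 74.8% and 63.1% in the AG120 day 14 libraries and 60.6% to 66.1% in relapse. How much of the chi-square comes from that share was not tested, so it does not rank the groups by the spread of other genes.

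At relapse 6482 genes differed from the drug-treated cells (54% of those tested), 3352 higher (27.9%) and 3130 lower (26.1%), of which 2114 and 1049 exceeded 2-fold. The red cell program, high on the drug, was lost, and the progenitor, primary granule and cytokine genes that the drug had lowered were back. The counts were 5596 (46.7%) against day 5 alone and 5480 (45.7%) against day 14 alone, with 2800 higher (23.3%) and 2680 lower (22.3%) in the latter. For 4464 genes (37.2% of those tested) the 4 relapse libraries and the 5 AG120 libraries did not overlap, and 4380 of these were among the 6482. The count against AG120 was between 5582 and 6977 over 24 other settings of the fit.

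The promoters of 2 genes with large falls and 2 with large rises are printed as examples that hold a match, and they do not stand for their groups. They are reference sequences from RefSeq (GRCm38.p6), from 250 bases before to 50 after an annotated start, and capitals mark letters of GATA sites (AGATAA or TGATAA), E-boxes (CACGTG) and ETS sites (GGAAGT) on either strand.
Ermap promoter (chr4:119189946-119190245, minus strand): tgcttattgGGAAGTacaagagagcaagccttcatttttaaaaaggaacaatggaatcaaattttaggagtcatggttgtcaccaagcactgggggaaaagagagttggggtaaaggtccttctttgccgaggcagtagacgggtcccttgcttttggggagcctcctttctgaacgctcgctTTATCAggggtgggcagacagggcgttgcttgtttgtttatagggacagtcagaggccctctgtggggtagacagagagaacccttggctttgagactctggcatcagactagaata
Abcb4 promoter (chr5:8893471-8893770, plus strand): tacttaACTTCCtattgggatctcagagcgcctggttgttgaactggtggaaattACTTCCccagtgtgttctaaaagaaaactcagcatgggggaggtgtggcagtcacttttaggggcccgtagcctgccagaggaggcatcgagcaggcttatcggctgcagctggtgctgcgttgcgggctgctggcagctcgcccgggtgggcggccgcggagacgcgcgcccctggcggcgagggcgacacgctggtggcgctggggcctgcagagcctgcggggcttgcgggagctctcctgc
Cd244a promoter (chr1:171558943-171559242, plus strand): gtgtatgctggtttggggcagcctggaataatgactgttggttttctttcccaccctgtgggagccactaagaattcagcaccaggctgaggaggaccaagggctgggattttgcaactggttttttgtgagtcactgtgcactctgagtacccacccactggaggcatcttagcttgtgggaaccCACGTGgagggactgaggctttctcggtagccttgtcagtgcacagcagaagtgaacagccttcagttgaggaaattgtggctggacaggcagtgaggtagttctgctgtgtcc
S100a4 promoter (chr3:90603520-90603819, plus strand): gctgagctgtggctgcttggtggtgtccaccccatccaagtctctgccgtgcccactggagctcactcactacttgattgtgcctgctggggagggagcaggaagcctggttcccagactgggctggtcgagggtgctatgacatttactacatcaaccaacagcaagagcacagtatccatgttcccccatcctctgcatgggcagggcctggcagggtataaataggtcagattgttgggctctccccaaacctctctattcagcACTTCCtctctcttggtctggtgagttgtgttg
In the promoter of Ermap, an erythroid membrane gene, the capitals at -67 spell a GATA site on the other strand and those at -241 an ETS site, counted from the start. The promoter of Abcb4, a phospholipid transporter, holds 2 ETS matches and no GATA match. Cd244a, an immune receptor, has an E-box at -64, and S100a4, a calcium-binding protein of motile and myeloid cells, an ETS match at 18. The promoters of Aqp1, Blvrb, Mt2 and Gata1, which also had large falls, and of Ltb, which had a large rise, hold no match to any of these motifs. Of 11991 symbols tested, 8649 had at least 1 promoter in the table, and some have several that overlap. A GATA match was found in 10.4% of the promoters of genes that fell and in 11.6% of those of genes that rose, against 10.7% of all promoters of tested genes. Over 2-fold the shares were 13.2% for genes that fell and 12.8% for those that rose, and 18.6% of all promoters in the RefSeq set held a match. Among genes that fell over 8-fold (both limits were added after the first counts were made), 34 of 123 promoters (27.6%) held one, against 66 of 421 (15.7%) for genes that rose over 8-fold. E-boxes stood in 12.9% of promoters of genes that fell, 8.56% of those that rose and 10.2% of all. ETS matches stood in 30.1%, 28.4% and 29.6%. Over 2-fold, ETS matches stood in 23.3% for genes that fell and 27.8% for those that rose, and over 8-fold in 19.5% and 27.8%. E-boxes stood in 11.6% and 7.07% over 2-fold and in 9.76% and 6.41% over 8-fold. These are shares of letters in a window and carry no test.

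The red cell list had the lowest median of the 36 gene lists. Ermap measured 173, 199 and 181 CPM at day 5 and 334 and 224 CPM at day 14, and 2.26, 0.533, 13.9 and 0.957 CPM in the relapse replicates (ENSMUSG00000028644, GRCm38 chr4:119175457-119190011). The groups stood far apart, with replicate 3 the highest of the relapse libraries, and vehicle libraries ranged from 3.09 to 8 CPM. Its log2 fold change was -5.62 (SE 0.66, adjusted p = 5.54e-05). Klf1, a transcription factor of red cell maturation, stood at 38.8 to 68.5 CPM on the drug and at 0.377, 0.178, 3.43 and 0.479 CPM at relapse, a change of -5.40 (SE 0.40, adjusted p = 1.79e-07). Gata1, the lead erythroid factor, went from 31.4 to 50.1 CPM on the drug to 0, 2.31, 5.63 and 1.79 CPM (ENSMUSG00000031162, chrX:7959260-7978071). All 4 relapse values of Gata1 also lay below the vehicle range of 8.22 to 10.1 CPM, but relapse minus vehicle was not past the threshold (-1.87, SE 0.44, adjusted p = 0.116). Aqp1, the water channel of red cells, fell by 5.19 from the drug level, to 3.39, 4.62, 18.4 and 2.15 CPM, with replicate 3 inside the vehicle range of 16.4 to 22.2 CPM and the other 3 below it.

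Of 10 erythroid transcription factors, 7 fell and 2 rose, and the median of the list was -1.22 against 0.013 over all genes tested. The counts of this and the later lists stand beside 26.1% of all genes that fell and 27.9% that rose. Nfe2 and Lyl1, the members that rose (1.25 and 1.11), are also expressed in megakaryocytic and early progenitors. Of 11 heme synthesis genes, 10 fell and none rose (median -2.05). Cpox, the coproporphyrinogen oxidase, measured 132 to 201 CPM on the drug and 7.73, 6.58, 16.1 and 13.9 CPM at relapse, where vehicle had 13.2 to 16.1 CPM. Alas2, the erythroid first enzyme of the path, was the member that did not pass, at -0.73. Of 23 genes for red cell membrane, globins and gas exchange, 18 fell and none rose (median -3.36). The 4 globin genes tested, which have near-identical copies, did not pass, with values from -0.80 for Hbb-bt to -2.25 for Hba-a1, nor did the anion exchanger Slc4a1 at 0.05. Against AG120 day 14 alone 21 of the 23 fell and against day 5 alone 14, and Hba-a1 (-3.37), Hba-a2 (-2.92) and Hbb-bt (-2.29) were among those lower than day 14. Of 11 iron genes, 8 fell, including the exporter Slc40a1 (-4.53), the reductase Steap3 (-4.21) and the transporter Slc11a2 (-3.12). The summed level of the red cell list was 1060 to 1220 CPM at day 5, 2650 to 2920 CPM at day 14 and 142 to 637 CPM at relapse, beside 213 to 298 CPM in vehicle. Relapse replicate 3 was the highest of the 4 in this list: its median stood 1.29 log2 units above vehicle, while replicates 1 and 4 stood at -1.25 and -1.39.

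**Figure D1:**
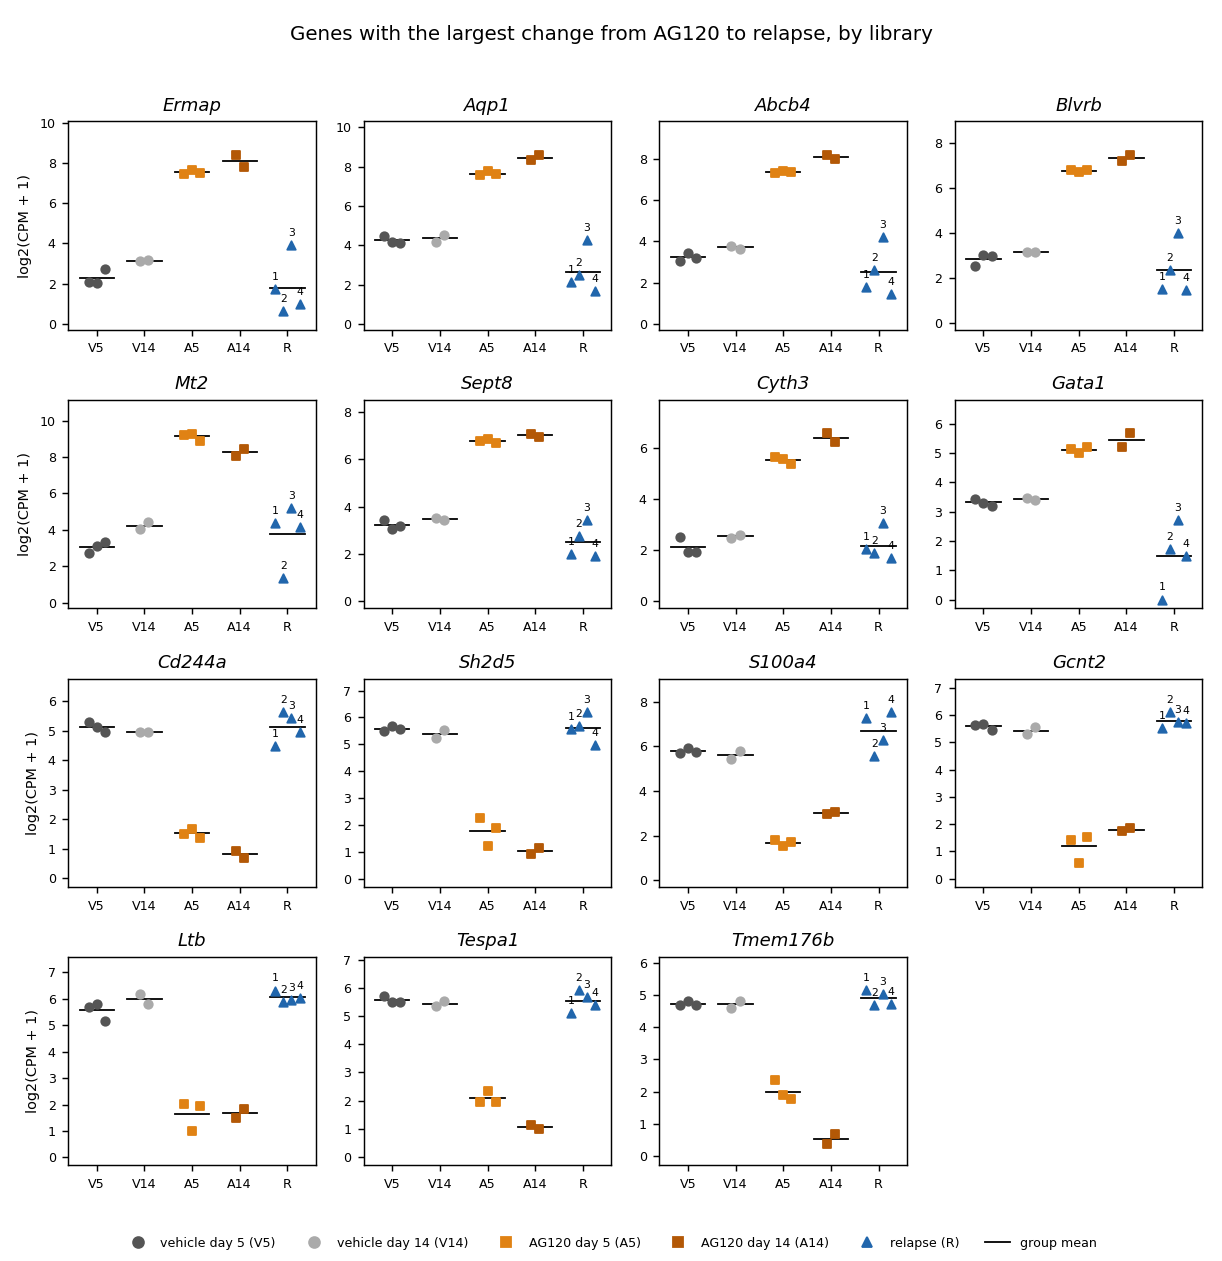
Levels of 8 genes with low and 7 with high log2 fold change in relapse against AG120, taken in order of size among genes that averaged 3 or more on the log2 CPM scale and did not overlap between these groups, as log2(CPM + 1) on the vertical axis for each library, by group on the horizontal axis (V, vehicle; A, AG120; R, relapse; 5 and 14, days); bars are group means and digits are relapse replicates. The relapse libraries lie apart from the AG120 libraries by choice and on the side of vehicle, as for Ermap with 0.533 to 13.9 CPM at relapse and 173 to 334 CPM on the drug.

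The other genes with large falls were not all red cell genes. Mt2, a metallothionein that binds zinc, measured 269 to 617 CPM on the drug and 19.6, 1.6, 36 and 16.9 CPM at relapse (-4.47, SE 0.55, adjusted p = 7.82e-05). Blvrb, which reduces biliverdin, fell by 4.49. Abcb4 fell by 4.94, the septin gene Sept8 by 4.47 and Cyth3, an exchange factor for ARF proteins, by 3.99. The list of glutathione and NRF2 genes had 12 of 22 members lower and 1 higher (median -0.49), a called share of 59.1% beside 54% of all genes. Gclm, the regulatory subunit of the first glutathione enzyme, stood at 103 to 132 CPM on the drug, 23.2 to 29.8 CPM at relapse and 25.7 to 32 CPM in vehicle, a change of -2.20 (SE 0.12, adjusted p = 2.1e-10). Gstm1, the member that rose (2.04), stood at 5.85 and 10.8 CPM in replicates 1 and 4 and at 0.533 and 1.1 CPM in replicates 2 and 3. Its call was lost in 15 of 24 other settings, and with replicates 2 and 3 alone it stood at -0.41.

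Progenitor genes moved the other way. Cd34, a surface marker of progenitors, measured 11.2, 11.4 and 7.65 CPM at day 5 and 4.47 and 5.79 CPM at day 14, and 186, 168, 162 and 135 CPM at relapse, beside 126 to 146 CPM in vehicle (ENSMUSG00000016494, chr1:194938819-194961279). It rose by 4.48 (SE 0.15, adjusted p = 3.82e-12), and its difference from vehicle, 0.21, had a 95% interval of -0.04 to 0.45. Of 30 genes listed for stem and leukemia stem cells, 21 passed the filter on low counts, 17 of these rose and 2 fell (median 1.98). Hoxa9, Hoxa10, Flt3 and Mecom were among the 9 that did not pass it. The ETS factors Erg (4.43) and Fli1 (2.72), Meis1, a partner of HOX proteins (3.59), Sox4 (4.27) and Ikzf2 (3.19) rose, whereas the TGF-beta co-receptor Eng (-1.31) and Mllt3 (-2.57) fell. Myb did not pass, at 0.05. Kit rose by 0.99 (SE 0.31, adjusted p = 0.0188), in replicates 2 and 3 only above the drug range, and it was no longer called without relapse replicate 2 (adjusted p = 0.0608), relapse replicate 3 (0.0579), or either of the AG120 day 14 replicates (0.0552 and 0.0673). With relapse replicates 1 and 4 alone the value was 0.15. Kit was called against day 14 alone (1.59, adjusted p = 0.0118) but not against day 5 alone (0.38, adjusted p = 0.376). With the AG120 libraries as 1 group it was not called (0.73, adjusted p = 0.11). Mycn, a MYC family member, stood at 0, 10.5, 15.5 and 0 CPM in relapse replicates 1 to 4 and at 0 to 0.671 CPM on the drug. Mycn was called against the drug (5.88, SE 2.09, adjusted p = 0.0394), but the call was lost in 16 of 24 other settings, and with replicates 1 and 4 alone the value was -2.55.

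The rises described next are the highest among genes that averaged 3 or more on the log2 CPM scale and were chosen for not overlapping between relapse and AG120, so their separation is fixed by the choice. Gcnt2, which branches poly-N-acetyllactosamine chains, measured 0.503 to 2.6 CPM on the drug and 45.4, 68.3, 52.4 and 50.7 CPM at relapse (4.85, SE 0.21, adjusted p = 2.46e-11). S100a4 reached 151, 46.8, 77 and 183 CPM at relapse, from 1.84 to 7.39 CPM on the drug. Cd244a, the SH2 adaptor Sh2d5, the lymphotoxin gene Ltb, Tespa1 and Tmem176b were the others of these 7, with log2 fold changes of 4.56 to 4.92.

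Of 13 myeloid lineage transcription factors 6 rose and none fell (median 0.92), a called share of 46.2% beside 54% of all genes. Against day 14 alone 5 of them rose and 1 fell. Granule and monocyte lists also had more members higher than lower, with a spread between relapse libraries that the progenitor markers above did not all show. Of 19 primary granule genes 16 rose and none fell (median 2.54). Of 17 monocyte genes 10 rose and none fell (median 1.32), a called share of 58.8% beside 54% of all genes. Against day 14 alone 7 of the monocyte genes rose and 3 fell. Of 24 secondary granule genes 11 rose and none fell (median 1.16), a called share of 45.8% beside 54% of all genes. In the AG120 day 14 libraries, medians relative to vehicle were -0.08 and -0.04 for monocyte genes and -0.45 and -0.39 for secondary granule genes. Spi1, the PU.1 gene, stood at 3.58 to 6.71 CPM on the drug and at 60.3, 32.9, 35.3 and 54.1 CPM at relapse (3.16, SE 0.20, adjusted p = 2.19e-09). Hp, which encodes haptoglobin, stood at 8.29 to 13.1 CPM on the drug and at 246, 23.5, 17.7 and 152 CPM at relapse. Cybb, the NADPH oxidase subunit of phagocytes, stood at 3.03 to 16.2 CPM and at 140, 22.1, 12.9 and 95.8 CPM. Both were called (3.29 and 3.18), with replicates 1 and 4 high. For Hp, replicates 2 and 3 lay between the drug-treated and the vehicle libraries, and for Cybb replicate 3 lay within the drug range. Mature neutrophil genes such as Ltf (-0.04), Camp (0.28), Ngp (0.47), S100a8 (0.37), S100a9 (0.07) and Mmp9 (-0.04) did not pass. This list differed between the days on the drug: its summed level was 202 to 292 CPM at day 5, 1420 to 1840 CPM at day 14 and 404 to 1500 CPM at relapse, against day 14 alone 8 members rose and 5 fell, and without relapse replicate 2 the fit called 7 of its members lower at relapse than on the drug.

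Markers of other cell types that the gate could hold were as follows. The share of members called was 66.7% for the megakaryocyte, the dendritic cell and the T and NK cell lists. It was 72.7% for the mast cell, 50% for the B and plasma cell and 80% for the stromal list. Over all genes tested the share was 54%, with 46.7% against day 5 alone and 45.7% against day 14 alone. Of 15 megakaryocyte and platelet genes tested, 8 rose and 2 fell, but 3 rose and 3 fell against day 14 alone, and 5 rose and 5 fell with relapse replicates 1 and 4 alone. Their summed level was 193 to 288 CPM on the drug, 327 to 865 CPM at relapse and 646 to 776 CPM in vehicle. Of 11 mast cell, basophil and eosinophil genes, 7 rose, among them the eosinophil receptor Il5ra (5.13), and 1 fell, Il1rl1, a mast cell receptor for interleukin 33 (-4.21), whereas 2 rose and 3 fell against day 5 alone. Of 9 dendritic cell and MHC class II genes 5 rose and 1 fell, the factor Zbtb46 (-3.97). Against day 14 alone 2 rose and 1 fell (median -0.11), and against day 5 alone 6 rose and 2 fell. The B and plasma cell list had 2 of 14 genes past the filter, with a summed level of 2.27 to 5.28 CPM at relapse and 1.19 to 2.43 CPM on the drug. Of 6 T and NK cell genes 4 rose (45.3 to 54 CPM at relapse, 10.1 to 21.6 CPM on the drug), and of 5 stromal and endothelial genes 4 rose, with Pecam1 and Vim, which blood progenitors also express, among them. Their part in the other results was not tested.

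Most of the growth and metabolic lists had more members lower than higher. Over all genes tested, 27.9% rose and 26.1% fell, and the list counts here and below stand beside those shares. Of 41 MYC target and ribosome biogenesis genes 39 fell, none rose, and the median was -0.90. Hspd1, a mitochondrial chaperonin, measured 980 to 1218 CPM on the drug and 495, 213, 295 and 414 CPM at relapse, where vehicle had 343 to 428 CPM. Of 40 G1/S and replication genes 30 fell and 1 rose (median -0.61), with the cyclin Ccne1 (-2.14), Cdc6 (-1.36) and Mcm10 (-1.31) lowest and the clamp loader subunit Rfc2 (1.66) as the exception. Of 40 G2/M genes 22 fell and 1 rose (median -0.37), and 11 fell with relapse replicates 1 and 4 alone. Of 20 cell cycle inhibitor and quiescence genes 11 rose and none fell (median 0.88). Of 34 oxidative phosphorylation genes 23 fell and none rose (median -0.45), whereas 40 cytosolic ribosomal protein genes gave 2 rises and 4 falls (median -0.05). Of 28 proteasome genes 16 fell, 9 with relapse replicates 1 and 4 alone and 26 with replicates 2 and 3 alone. The 2 that rose, Psmb8 (1.83) and Psmb9 (1.27), encode subunits of the immunoproteasome.

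Genes around 2-oxoglutarate moved in both directions. Idh1, the gene of the drug's target, measured 20.8, 22.8 and 18 CPM at day 5 and 9.54 and 11 CPM at day 14, and 57.7, 21, 26.5 and 49.2 CPM at relapse, against 29.7 to 43.5 CPM in vehicle. It rose by 1.40 (SE 0.26, adjusted p = 0.000566), though replicate 2 lay within the day 5 range, and the counts do not separate mutant from normal copies. Idh2 rose by 1.20 without overlap (82 to 123 CPM at relapse, 31 to 63.1 CPM on the drug), as did the DNA methyltransferase gene Dnmt3a by 1.44 (95.2 to 117 CPM against 31.6 to 43 CPM). Nras did not pass, at 0.11 (adjusted p = 0.392). In the list of the tricarboxylic acid cycle, 2-oxoglutarate and NADPH, 4 of 28 rose (Idh1, Idh2, Glud1 and Mdh1) and 16 fell, among them Dlst of the 2-oxoglutarate dehydrogenase complex (-1.12). D2hgdh, the enzyme for the D form that mutant IDH1 makes, did not pass, at 0.62. Of 25 demethylase and DNA methylation genes 9 rose and 3 fell (median 0.39), with the prolyl hydroxylase Egln3 (3.32) and Tet2 (1.01) among the rises, and 18 rose with relapse replicates 2 and 3 alone.

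Among signalling lists, that of TNF and NF-kB had the most members higher. Of 20 TNF and NF-kB genes 17 rose and 1 fell, with a median of 2.42, and the member that fell was Tnfaip2 (-2.59). Tnf measured 0 to 0.478 CPM on the drug and 3.96, 4.27, 21.4 and 4.19 CPM at relapse. Each relapse library was above each AG120 library, and without the high replicate 3 the change was 4.16 (adjusted p = 2.64e-06) in place of 5.21. Of 20 RAS and MAPK feedback genes 8 rose and 1 fell (median 0.79), led by the phosphatase Dusp5 (3.70). Ccnd1, the cyclin D1 gene, stood at 5.79 to 7.72 CPM on the drug and at 62.4, 35.6, 8.24 and 73.5 CPM at relapse, with replicate 3 just above the drug range. Of 11 TGF-beta genes 7 rose and none fell, including the receptor Tgfbr2 (2.39) and Smad3 (1.56). Interferon genes gave 4 rises (Usp18, Irf1, Ddx58 and Gbp2) and 1 fall (Isg15) in 19, with a median of -0.02. Other stress lists were mixed: 13 of 24 ATF4 genes fell and 3 rose, 9 of 22 p53 and apoptosis genes rose and 7 fell, and 8 of 20 unfolded protein response genes rose and 1 fell, the 8 becoming 18 with replicates 1 and 4 alone and 4 with replicates 2 and 3 alone. Of 30 lysosome genes 17 rose and 2 fell (median 0.56), with Laptm5 (2.53), Grn (2.11) and Man2b1 (1.87) in front. Of 26 cholesterol and lipid genes 5 rose and 8 fell (median -0.12), of 24 hypoxia and glycolysis genes 9 rose and 4 fell (median 0.30), and of 16 immediate early genes 4 rose and none fell (median 0.90). The shares of members called, 50%, 54.2% and 25%, were near or below the 54% of all genes.

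**Figure D2:**
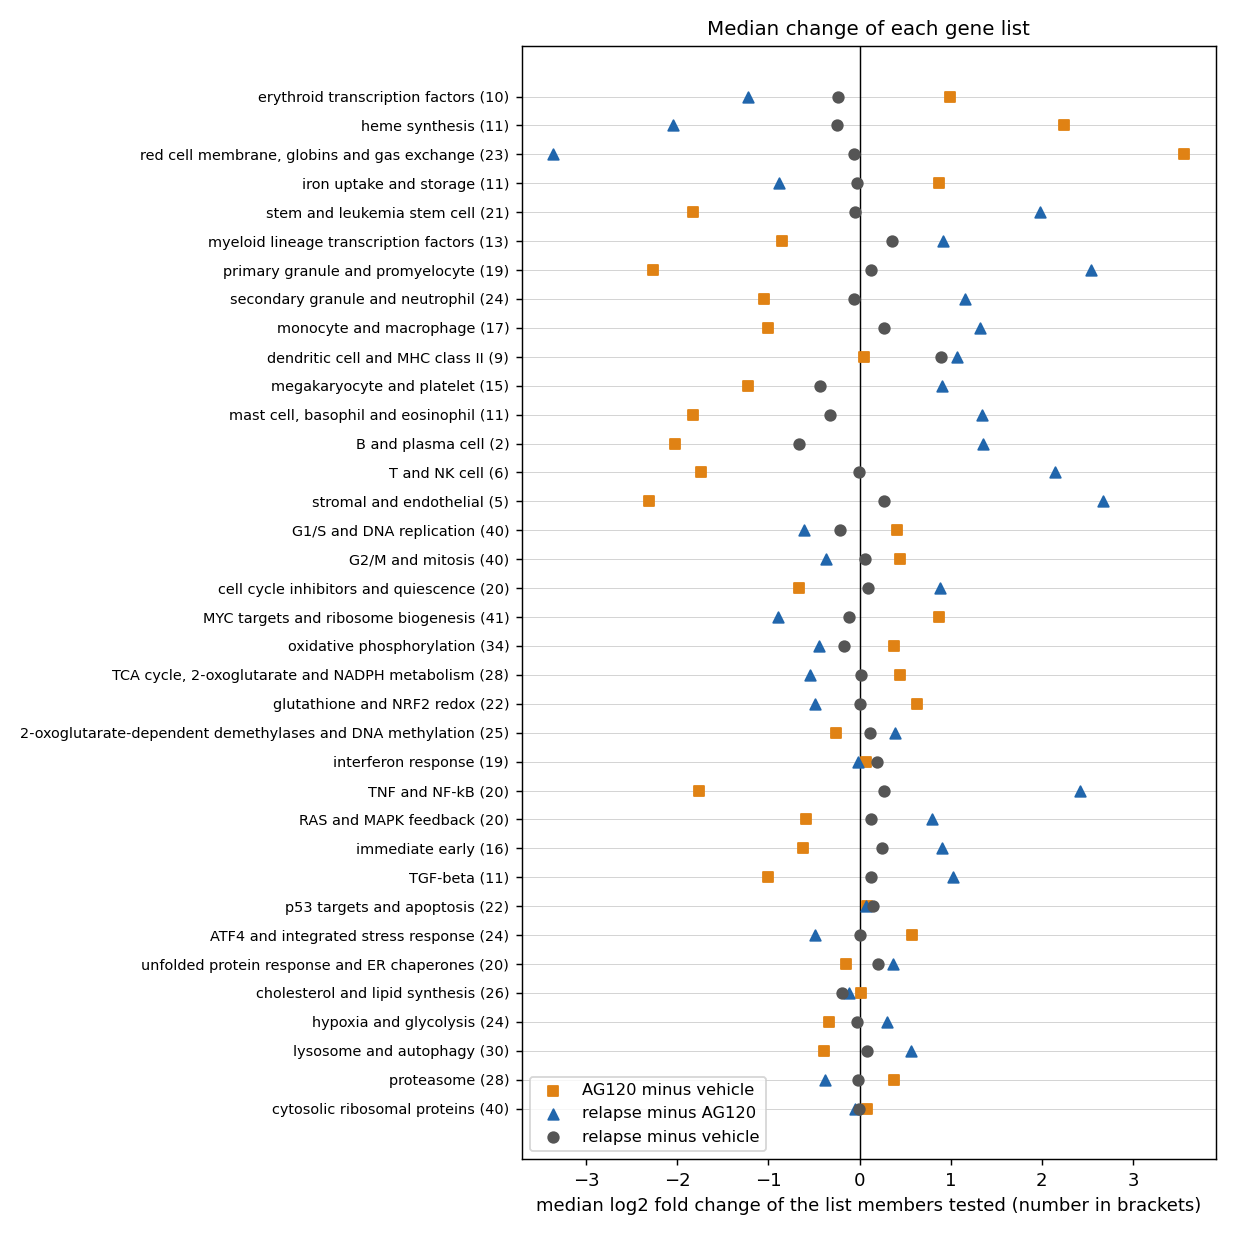
Median log2 fold change (horizontal axis) of the tested members of each gene list (vertical axis, number tested in brackets) in AG120 minus vehicle, relapse minus AG120 and relapse minus vehicle; the comparisons share libraries. The red cell list stands at -3.36 in relapse minus AG120 and at -0.06 in relapse minus vehicle, and the primary granule list at 2.54 and 0.12.

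How much of the on-drug state was gone was counted gene by gene. On the drug 6146 genes differed from vehicle as a mean of both days (51.2% of those tested). Of these, 5353 (87.1%) were called back in the opposite direction at relapse and were not called against vehicle, which is named returned here. Among changes over 2-fold, 2555 of 2728 (93.7%) had returned. For 4392 of the 5353 the 95% interval of relapse minus vehicle lay within 1 log2 unit of 0. For the rest it reached past that limit, through its width, a shift from 0 or both. Sept8, a returned gene, had an interval of -1.39 to -0.17. A further 782 were undecided, not passing in enough comparisons to be placed, and 11 fell in other classes. These counts use the same AG120 and vehicle libraries to pick and to read the genes.

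The genes can also be picked and read by comparisons that share no library, though the filter, scaling and spread came from all 14 libraries. AG120 day 5 against vehicle day 5 picked 4735 genes (39.5% of those tested), which were then read at relapse against the day 14 groups. The number picked also changed with the relapse libraries in the fit: 6126 with replicates 1 and 4 only and 5968 with replicates 2 and 3 only. Of these 3689 (77.9%) had returned, 1025 were undecided, 2 were kept (not called against the drug and still different from vehicle), and 19 were called beyond AG120 day 14 on the side of the day 5 change. Of these 19, Rnu12 was called against vehicle day 14 and the other 18 were not. The size of the share depended on the AG120 day 14 libraries: it was 66.4% without replicate 1 of that group and 58% without replicate 2. For 885 of these genes with changes over 2-fold and a mean log2 CPM of at least 3, relapse kept a median of -10.1% of the day 5 effect (quartiles -21.3% and 1.42%), where AG120 day 14 kept 111%. The 335 genes raised by the drug stood, relative to vehicle day 14, at a median of 1.23 and 1.25 log2 units in the AG120 day 14 libraries and at -0.02, -0.48, -0.16 and -0.07 in relapse replicates 1 to 4. The 550 lowered genes stood at -2.14 and -2.07 and at 0.04, 0.27, 0.14 and -0.01. Every relapse library was thus near vehicle in both sets, with replicate 2 farthest past it.

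**Figure D3:**
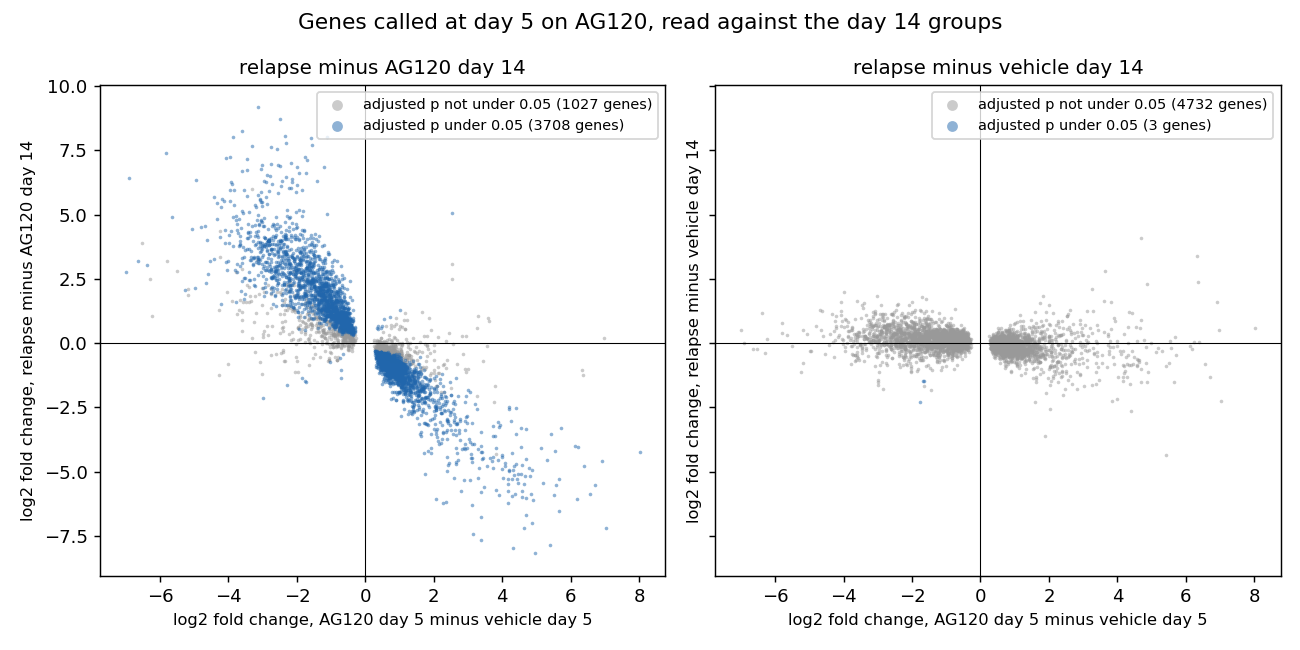
Each point is 1 of 4735 genes called in AG120 day 5 minus vehicle day 5 (log2 fold change, horizontal axis), read on the vertical axis as relapse minus AG120 day 14 (left) or relapse minus vehicle day 14 (right); blue points have an adjusted p under 0.05. On the left 3708 of the genes are called, 3689 of them on the side opposite to their day 5 change; on the right 3 are called and the points lie around 0.

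In single libraries a few genes lay nearer to the drug level than to vehicle. Among 694 genes changed over 2-fold at day 5 and, in mean log2 CPM, in the same direction at day 14, 658 (94.8%) were nearer to vehicle day 14 than to AG120 day 14 in all 4 relapse libraries. Replicate 1 had 20 genes nearer to the drug level, replicate 2 had 6, replicate 3 had 9 and replicate 4 had 14. Of the 20 in replicate 1, 19 were genes lowered by the drug. The 2 that were nearer to the drug in all 4 libraries were Rnu11 and Gm28872, which overlap on opposite strands.

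Against vehicle, 22 genes were called at relapse (0.183% of those tested), 12 higher and 10 lower, with 1390 at an unadjusted p under 0.05. Against vehicle day 14 alone there were 6 (0.05%), with 923 at an unadjusted p under 0.05. The 95% interval lay within 1 log2 unit of 0 for 9315 genes (77.7%). The count differed between settings. DESeq2 called 101 genes, and the fits without relapse replicate 1, 2, 3 and 4 called 48, 117, 106 and 25. With replicates 1 and 4 alone 1560 genes were called and with replicates 2 and 3 alone 1762, and the percentage returned was then 59.6% and 66.5%. Those pairs were taken because their libraries are alike.

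Rnu11 was the clearest case of a gene near its level on the drug, and away from vehicle, at relapse. It encodes U11, an RNA of the minor spliceosome, which removes a rare class of introns. It measured 32.3, 19.5, 30.6, 18.8 and 19.2 CPM in vehicle, 9.27, 8.55, 7.65, 6.85 and 5.39 CPM on the drug, and 7.92, 5.51, 6.73 and 6.94 CPM at relapse. Each vehicle library was above each of the other 9. Relapse minus vehicle was -1.75 (SE 0.17, adjusted p = 5.45e-05), relapse minus AG120 -0.08 (adjusted p = 0.741), and the call against vehicle held in all 23 other settings run. Gm28872 covers the same bases on the other strand, and its counts are nearly those of Rnu11, so it is not a separate result. Rnu12, which encodes the partner RNA U12, measured 4.82 to 15.5 CPM in vehicle, 2.8 to 5.53 CPM on the drug and 2.07, 0.356, 1.51 and 1.08 CPM at relapse. It was lower at relapse than on the drug (-1.58, SE 0.37, adjusted p = 0.00168) and than in vehicle (-2.86, adjusted p = 0.000396). Mature U11 and U12 carry no poly(A) tail, and a 3′ kit of this kind primes on poly(A). What this does to their counts was not tested. Their sequences (GENCODE M21, GRCm38) are shown because Rnu11 stayed at the drug level and Rnu12 went below it.
Rnu11 RNA (chr4:132270080-132270213, minus strand): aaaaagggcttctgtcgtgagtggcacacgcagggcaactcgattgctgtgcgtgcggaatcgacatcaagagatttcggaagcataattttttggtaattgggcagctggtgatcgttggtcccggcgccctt
Rnu12 RNA (chr15:83149644-83149794, plus strand): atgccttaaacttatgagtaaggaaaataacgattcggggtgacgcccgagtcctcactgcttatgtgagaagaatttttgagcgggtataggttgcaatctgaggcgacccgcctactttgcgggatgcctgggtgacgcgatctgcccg
Of 93 genes of small RNA classes that passed the filter, a group looked at after these values were seen, 16 were lower and 14 higher on the drug, and 2, Rnu11 and Rnu12, were called against vehicle at relapse. Over all genes tested, 51.2% were called on the drug, a larger share than in this group, and 0.183% against vehicle at relapse.

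The other genes that had not simply returned were few and were named after their values were seen. Igf2bp3, an RNA-binding protein of fetal and leukemic cells, went from 25.4 to 30.6 CPM in vehicle to 20.3 to 24.8 CPM at day 5, 9.83 and 8.79 CPM at day 14, and 1.7, 8, 6.18 and 1.56 CPM at relapse. Each relapse library was below each AG120 library (-1.73, SE 0.36, adjusted p = 0.00137), and the call against vehicle (-2.71) held in all 23 other settings. Malsu1, its neighbour on chromosome 6, overlaps it and was also lower at relapse (9.42 to 14.4 CPM, against 21.5 to 23.3 CPM in vehicle), so reads of the pair may be shared. Ung, the uracil-DNA glycosylase that starts base excision repair, stood at 50.9 to 62 CPM at relapse, 53.6 to 93.2 CPM on the drug and 72 to 100.2 CPM in vehicle, and its call against vehicle was lost in 6 of 23 other settings. Gdf15, a stress cytokine (1.07 to 2.2 CPM at relapse, 2.56 to 6.28 CPM in vehicle), was placed as kept, and the lipid transporter Abca2 (20 to 32.8 CPM, 35.6 to 49.8 CPM in vehicle) as partly kept. Both lost the call against vehicle in 14 of 23 other settings. Kdm7a, a histone demethylase that uses 2-oxoglutarate, stood at 7.03 to 8.62 CPM in vehicle, 5.53 to 7.45 CPM at day 5, 24.4 and 20.2 CPM at day 14 and 12.1, 17.1, 23.8 and 12.2 CPM at relapse. Its rise on the drug was seen at day 14 and not at day 5, and its call against vehicle was lost in 9 of 23 other settings.

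A group of 3 genes lowered by the drug went above vehicle at relapse. Cdkn1a, the p21 inhibitor of cyclin-dependent kinases, measured 2.38 to 5.32 CPM on the drug, 10.3 to 17.5 CPM in vehicle and 21.3, 23.1, 26.9 and 31.8 CPM at relapse. All relapse values lay above all vehicle values, but the call against vehicle (0.88, adjusted p = 0.0327) was lost in 11 of 23 other settings, among them the fit without relapse replicate 4 (adjusted p = 0.0741). Arap2, a regulator of ARF proteins, reached 28.7 to 46.1 CPM against 16.4 to 20.6 CPM in vehicle, and the sialyltransferase St3gal2 34.1 to 48 CPM against 21.8 to 31 CPM. Their calls against vehicle were lost in 6 and 9 of 23 other settings.

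A further 11 genes were called at relapse against both other states but not in AG120 minus vehicle, 8 higher and 3 lower. A missed threshold does not show that the drug left them unchanged. Cpt1a, the gate to mitochondrial fatty acid oxidation, measured 33.9 to 38.9 CPM in vehicle, 24.7 to 35 CPM on the drug and 76, 67.6, 67.1 and 89.2 CPM at relapse (ENSMUSG00000024900, chr19:3322334-3385733). The relapse libraries stood apart from all 10 others, the change was 1.28 against the drug (SE 0.11, adjusted p = 9.89e-08) and 1.06 against vehicle (adjusted p = 0.000141), and the latter held in all 23 other settings. Scd2, a stearoyl-CoA desaturase that makes unsaturated fatty acids, went the other way, with 66.2 to 83.1 CPM at relapse, 108 to 153 CPM on the drug and 95.9 to 131 CPM in vehicle. Cdkn2a, which encodes the inhibitors p16INK4a and p19ARF, measured 11.7, 18.7, 1.65 and 21.3 CPM at relapse and at most 1.17 CPM in the 10 other libraries (5.46 against the drug, SE 0.81, adjusted p = 0.000128). Its call against vehicle (4.23, adjusted p = 0.0245) was lost in 8 of 23 other settings, none of them the removal of a relapse library, and replicate 3 was far below the others. Cd7, a surface protein of lymphoid cells and of some myeloid leukemias, measured 4.45 to 8.37 CPM at relapse and 0.159 to 1.99 CPM elsewhere. Xlr4c, an X-linked gene of a family with near-identical copies (1.07 to 6.94 CPM), the muscle creatine kinase Ckm (1.7 to 5.16 CPM) and Kbtbd11 (0.356 to 2.45 CPM) were higher at low levels. Their calls against vehicle were lost in 5 of 19, 8 of 22 and 12 of 20 other settings in which they were tested. Sox15 and Mpdu1, whose 3′ ends overlap, rose by 0.66 and 0.59 against the drug and may share reads. The helicase subunit Mcm6 was lower, at 93.2 to 110 CPM against 136 to 145 CPM in vehicle, and its call against vehicle was lost in 11 of 23 settings.

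**Figure D4:**
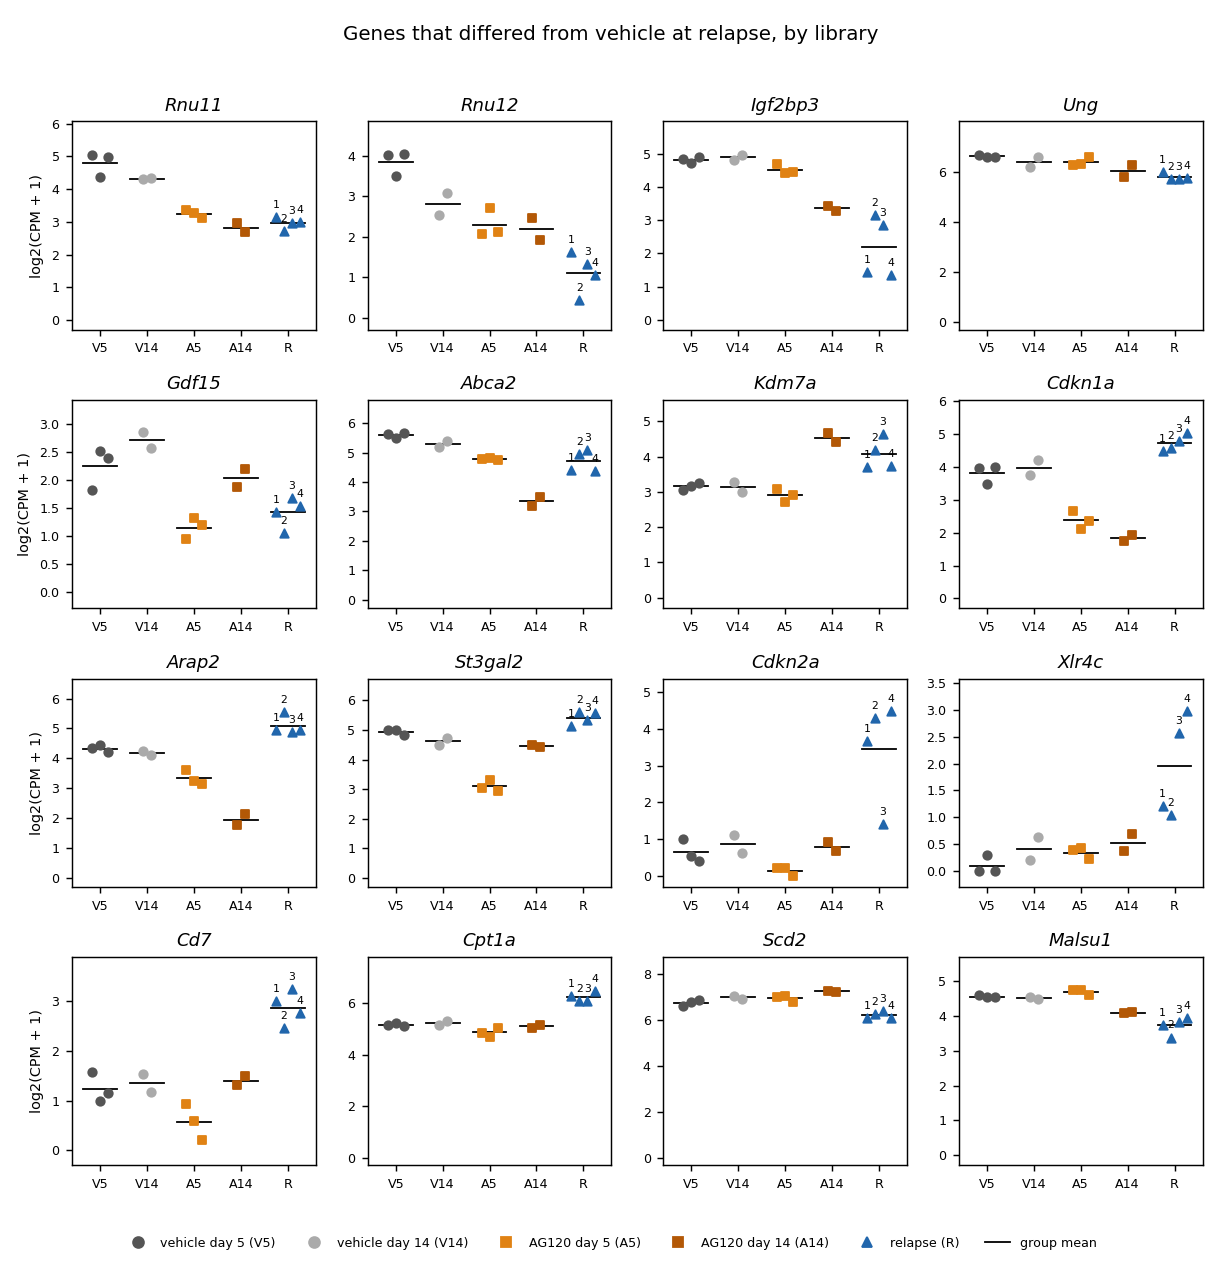
Levels as log2(CPM + 1) on the vertical axis, by library and group as in the plot of the largest changes, for genes called in relapse minus vehicle; bars are group means and digits are relapse replicates. Rnu11 stays at the drug level in all 4 relapse libraries (5.51 to 7.92 CPM), Igf2bp3 and Rnu12 lie below it, and Cpt1a (67.1 to 89.2 CPM) lies above both other states.

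The lists differed between the relapse libraries in ways that the means hide. Primary granule genes stood at a median of 0.76 and 0.33 log2 units above vehicle in replicates 1 and 4 and at -0.73 and -0.53 in replicates 2 and 3, with all AG120 libraries between -1.46 and -2.88. Stem cell genes stood at -0.79 and -0.38 in replicates 1 and 4 and at 0.49 and 0.15 in replicates 2 and 3. The unfolded protein response list stood at 0.69 and 0.46 in replicates 1 and 4 and at -0.32 in both others, and MYC targets at 0.15 and 0.10 against -0.57 and -0.27. Immediate early genes were highest in replicate 3 (1.05, against -0.25 to -0.60), where Ier3, an early response gene, measured 112 CPM and 29.9 to 46.2 CPM in the other 3. Mast cell, basophil and eosinophil genes were below vehicle in all 4 libraries, at -0.71 to -1.02, though none of the 11 was called against vehicle. These are descriptions of single libraries, and no test was made between them.

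**Figure D5:**
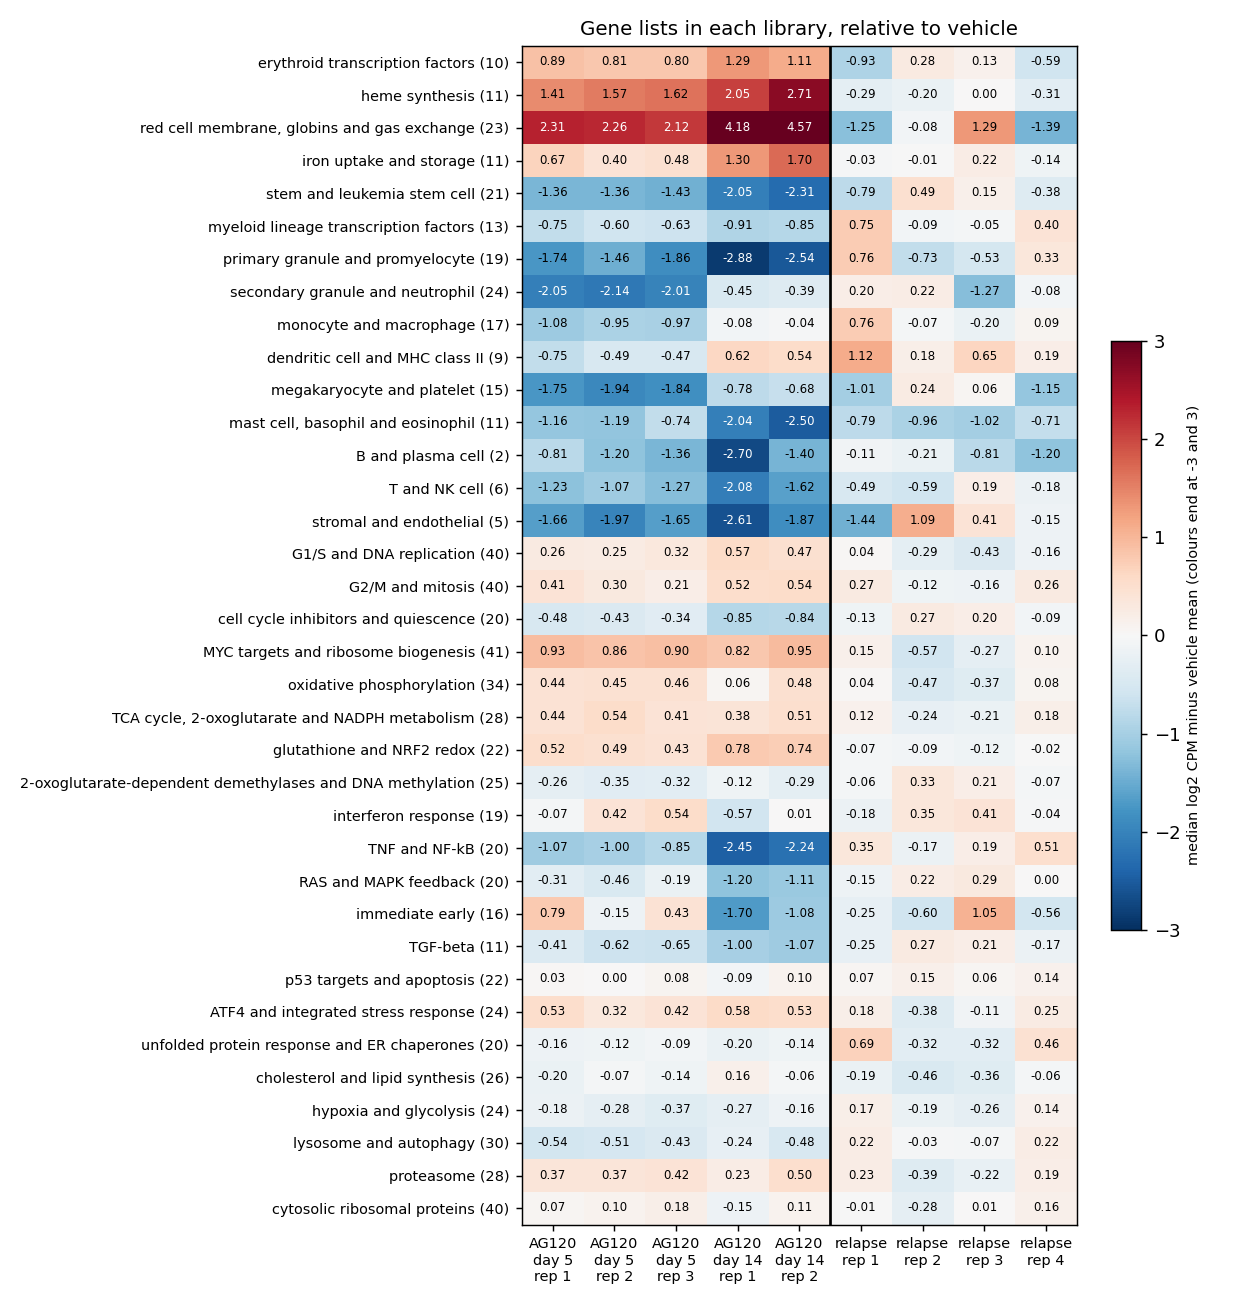
Median over the tested members of each gene list (vertical axis, number in brackets) of log2 CPM minus the vehicle mean, for each AG120 and relapse library (horizontal axis); red is above vehicle and blue below. The red cell list is at 2.12 to 4.57 on the drug and at -1.39 to 1.29 at relapse, and relapse replicates 1 and 4 differ from 2 and 3 in primary granule, stem cell and unfolded protein response genes.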

How the data were processed

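The table the authors deposited holds raw counts for 52636 Ensembl genes in 14 columns, which were matched to libraries by name. Per the submitters' processing notes, reads passed through bcl2fastq (2.17.1.14), cutadapt (1.14), HISAT2 (2.1.0) on mm10 and featureCounts of Subread (1.6.3). No source here states the strand setting or molecular identifiers, so overlapping and near-identical genes are uncertain. Symbols and positions came from GENCODE M21 (GRCm38).

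Tests were run in R 4.3.3 with edgeR 4.0.16: filterByExpr (minimum count 10, leaving 11994 genes), TMM scaling, and a robust quasi-likelihood fit with 1 coefficient per group over all 14 libraries. AG120 and vehicle enter as the mean of both days unless a day is named. DESeq2 1.42.0 and limma 3.58.1 were alternatives, beside other filters, scalings and left-out libraries. The fit was also run on simulated data, and the outcome is not reported here. Totals of 4995738 to 8691708 counts per library limit the precision of low genes.

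Genes named by rule were those of the model, sort and progenitor markers (Idh1, Idh2, Dnmt3a, Nras, Kit, Itgam, Cd34), the 8 highest and 8 lowest that did not overlap between groups and averaged 3 or more on the log2 CPM scale, genes kept from day 5, genes of relapse alone, and up to 3 per list and direction. Other genes were chosen after their values were seen. A few genes that the rule names are not reported here. The rules and the 36 gene lists were chosen with earlier results of these data known.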

Additional observations from a re-analysis of the deposited data

Results flagged for a closer look

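In each of 175 named genes, the 4 relapse libraries were searched for 1 library apart from the rest, by the gap to its neighbour as a share of the group's range, against Dixon's critical value. This marked 8 genes (4.57%), and chance marks about 1 in 20. Replicate 3 stood alone in Tnf (0.960 of the range, 21.4 CPM against 3.96 to 4.27), the carbonic anhydrase gene Car1 (0.900, 3.02 CPM against 0.377 to 0.533), the platelet and endothelial gene Vwf (0.854, 0.686 CPM against 0.12 to 0.189) and Btg2, an early response gene that restrains growth (0.841, 13.7 CPM against 3.59 to 4.53). Replicate 2 stood alone in Arap2 (0.935, 46.1 CPM against 28.7 to 29.6) and Csf2rb2, a cytokine receptor gene (0.892, 0 CPM against 2.03 to 2.47). Replicate 4 was high in H2-DMb1, an MHC class II loading gene (0.920, 13 CPM against 5.09 to 5.51), and replicate 1 in Irf8, a monocyte and dendritic cell factor (0.848, 30.5 CPM against 8.24 to 10.1).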

How the results depend on the processing

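Of 170 named genes called in relapse minus AG120, 140 kept their call in every setting run that tested them. Mycn (-2.55 with relapse replicates 1 and 4 only) and Gstm1 (-0.41 with replicates 2 and 3 only) changed sign. Genes called against vehicle (22) were 267 with no filter on low counts, 101 by DESeq2, 12 with AG120 as 1 group, 1560 with relapse replicates 1 and 4 only, 1762 with 2 and 3 only, and 8 to 117 with 1 library left out. Against vehicle day 14 (6) the values were 89, 23, 838 (1 and 4), 1359 (2 and 3) and 0 to 36. The percentage returned (87.1) was 59.6 and 66.5 in these pairs and 79.5 to 91.1 with 1 library left out, and from day 5 (77.9) it was 58.2, 63.7 and 58 to 82.6. Counted over 2-fold, 2555 and, from day 5, 1907 genes had returned. Genes kept, partly kept or moved further (8) were 5 over 2-fold, 76 with no filter, 31 by DESeq2, 3 with AG120 as 1 group, 651 and 331 in the pairs, and 4 to 48 with 1 library left out. From day 5 (21, of which 18 were not called against vehicle day 14) they were 10, 40 with no filter, 322, 189 and 8 to 43. Overshot genes (3) were 5 with DESeq2 size factors, 6 without ribosomal RNA and globin genes, 102 with no filter, 34 by DESeq2, 7 by limma-voom, 0 with AG120 as 1 group, 571 and 947 in the pairs, and 0 to 52. From day 5 (0) they were 41, 8 by DESeq2, 337, 792 and 0 to 23. Beyond what the alternatives' construction shows (fewer libraries, more genes), the cause was not tested. In same-numbered AG120 and relapse libraries, deviations from the group means correlated at -0.154 to 0.0634. The 2 AG120 day 14 libraries have mirrored deviations, so these values cannot decide whether the numbers pair libraries. Vehicle libraries were not compared in this way. With a replicate block 6167 genes were called against AG120, 5407 against day 5, 5177 against day 14, 17 against vehicle and 5 against vehicle day 14, and 84.2% had returned (77.1% from day 5).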
